A study of Mus musculus with 25 samples.

Results

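The expression of 10 genes of T cells was followed through mouse liver and liver tumors: the CD3 chains Cd3d, Cd3e and Cd3g, the coreceptors Cd4, Cd8a and Cd8b1, the granzyme Gzmk, the checkpoint receptors Pdcd1 and Ctla4, and the thymocyte signalling gene Themis. They were chosen by symbol, and each of the 10 matched 1 Ensembl identifier among the 48795 genes measured. The question was whether Themis follows the other 9. In these bulk RNA-seq libraries its levels did not run parallel to those of the CD3 chains: Themis stood at 0.09 to 0.12 TPM (RSEM's length-corrected share of the transcripts in a library) in untreated mice on control diet and at 1.94 to 15.9 TPM in every library of the other groups, whereas the CD3 chains together stood at 1.5 to 2.78 TPM in the former and at 1.05 to 7.42 TPM in the latter. Other members were nearer to it in this respect. Cd8a was lower in the former in every library, at 2 to 6 expected counts against 8 to 79 in all other libraries. Cd8b1 and Ctla4 were so against 3 of the 4 other groups once scaled to the library total (CPM). The margins were narrow. The least was 0.175 against 0.169 CPM for Cd8b1, in carcinogen-treated mice on control diet, and 0.067 against 0.042 CPM for Ctla4, in tumors. Such separation was common: from 15.6% to 21.7% of all tested genes lay wholly above the untreated mice on control diet, depending on the other group. The mean TPM was lowest in those untreated mice for 7 of the 9 others. That share was not counted over all genes. Themis was singled out with its levels in all 5 groups in view, so its differences between groups are a description and carry no test here.

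The libraries came from livers of male C57BL/6J mice in 5 groups. In nonDEN L-CD (n = 3) and nonDEN L-WD (n = 4) the mice had no carcinogen and ate the control diet (CD, AIN-93G) or the western-style diet (WD, AIN-76A) from weaning. In DEN L-CD (n = 4), DEN PT-WD (n = 8) and DEN T-WD (n = 6) the mice had received the liver carcinogen diethylnitrosamine (DEN) at 25 mg/kg into the peritoneum at 2 weeks of age. DEN PT-WD was peritumoral liver and DEN T-WD was tumor from WD-fed mice, while DEN L-CD was liver of CD-fed mice, from which no tumors were cut out because those that formed on this diet were too small. Whether the mice behind the DEN L-CD libraries had tumors is not given in the sources used here. Tissue was taken at 36 weeks of age by the study's outline of the experiment, and at 36 to 39 weeks by its supplement. No group is a DEN-injected liver on WD without tumors, so WD and the presence of tumors cannot be told apart in DEN PT-WD. Nothing in the sources used here says that samples with the same number came from 1 mouse, or that the samples of a group came from separate mice, so p-values measure the spread between these samples.

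The T cell receptor recognises peptide on MHC molecules and signals through the CD3 chains, which the kinase LCK phosphorylates and the kinase ZAP70 then binds. CD4 binds MHC class II and CD8, a pair of alpha and beta chains, binds MHC class I. THEMIS is an adaptor that binds GRB2 and the phosphatase SHP-1 and tunes this signal, and thymocytes that lack it mature poorly. Granzyme K marks a large class of memory and tissue CD8 T cells. PD-1 and CTLA-4, the products of Pdcd1 and Ctla4, restrain activated T cells and are the targets of checkpoint-blocking antibodies.

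Themis lies on chromosome 10 (GRCm38, 28668360 to 28883818, plus strand), away from the CD3 cluster on chromosome 9, where Cd3g (44969572 to 44980431, minus strand) and Cd3d (44981786 to 44987339, plus strand) stand head to head beside Cd3e (44998740 to 45009627, minus strand). Cd8b1 (71322788 to 71337494) and Cd8a (71373427 to 71379173) are neighbours on the plus strand of chromosome 6. RefSeq promoters (GRCm38.p6) were found for 8 of the 10 genes, and not for Cd4 and Cd8b1. The 250 bases before the annotated start are shown for Themis, the member that differed most between groups, and for Cd3e, to which it was compared, each 5′ to 3′ on the strand of its gene. Capitals mark matches, on either strand, to 5 short motifs: AGGAAG (ETS), TGTGGT (RUNX), AGGTCA (a nuclear receptor half-site), CACCTG (E proteins) and TATAAA (a core promoter element).
Themis, chr10:28668110-28668359, plus strand: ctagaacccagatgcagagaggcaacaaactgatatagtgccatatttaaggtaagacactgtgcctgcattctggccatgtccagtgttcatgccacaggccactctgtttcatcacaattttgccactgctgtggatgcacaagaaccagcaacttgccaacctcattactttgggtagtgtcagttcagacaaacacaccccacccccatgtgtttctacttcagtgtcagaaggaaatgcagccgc
Cd3e, chr9:45009612-45009861, minus strand: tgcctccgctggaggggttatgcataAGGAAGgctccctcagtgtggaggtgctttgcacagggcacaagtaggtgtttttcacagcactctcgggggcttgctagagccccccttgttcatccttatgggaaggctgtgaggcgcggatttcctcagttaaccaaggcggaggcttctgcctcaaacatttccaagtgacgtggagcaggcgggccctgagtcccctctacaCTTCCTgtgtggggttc
The Themis window held none of the 5 motifs. The Cd3e window held AGGAAG at both ends, once on the same strand as the gene with its first base 224 bases before the start, and once on the opposite strand at 17 bases before it. Positions count from the RefSeq start of Cd3e, which lies a little inside the GENCODE gene whose coordinates are given above, so the second match spans the edge of that gene. These matches are a description of the letters. AGGAAG occurred in 29.5% of all 32851 promoter windows of this length, CACCTG in 17.2%, TGTGGT in 14.0%, AGGTCA in 14.0% and TATAAA in 12.4%. A second RefSeq start of Themis, at chr10:28668145-28668394, overlaps the printed window and also held none.

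The deposited values are expected counts and TPM from RSEM, a tool that shares reads among transcripts. Expected counts summed to between 21530083 and 38074411 per library, so that the floor of 3 reads used here was 0.0788 to 0.139 CPM (counts scaled to the library total). The liver marker Alb was at 21879 to 99736 TPM in all 25 libraries. A pair of libraries stood apart from their groups: DEN T-WD replicate 5 had Alb at 21879 TPM against 82845 to 99736 in the other tumors, and DEN PT-WD replicate 7 had 23227 TPM against 36569 to 48642 in the other peritumoral livers. Over the 2000 most variable genes, DEN PT-WD replicates 3, 4, 5 and 8 correlated better with the mean of the tumors (r of 0.36 to 0.55) than with that of the other peritumoral libraries. A gene was called where edgeR's quasi-likelihood test, fitted on 15625 genes in all 25 libraries, gave an adjusted p no higher than 0.05 and the log2 fold change was 1 or more in either direction. Of the 10 members, 9 passed the filter on low counts and Ctla4 did not. In bulk tissue, fewer cells of a type and less RNA per cell cannot be told apart.

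Themis had expected counts of 8, 11 and 10 in nonDEN L-CD. The nonDEN L-WD libraries had 652, 702, 777 and 300, and those of DEN L-CD had 401, 304, 166 and 263. In DEN PT-WD the counts ranged from 275 to 1168 with a median of 754.5, and in DEN T-WD from 172 to 807 with a median of 292.5. No library of the other 4 groups came near the 3 nonDEN L-CD libraries. Per length, the mean level was lowest in nonDEN L-CD (0.107 ± 0.0153 TPM, SD, n = 3) and increased in the order DEN L-CD (3.11 ± 0.838, n = 4), DEN T-WD (4.23 ± 2.39, n = 6), nonDEN L-WD (6.84 ± 3.10, n = 4) and DEN PT-WD (8.10 ± 4.20, n = 8). Each of these 4 groups overlapped its neighbours in that order.

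**Figure D1:**
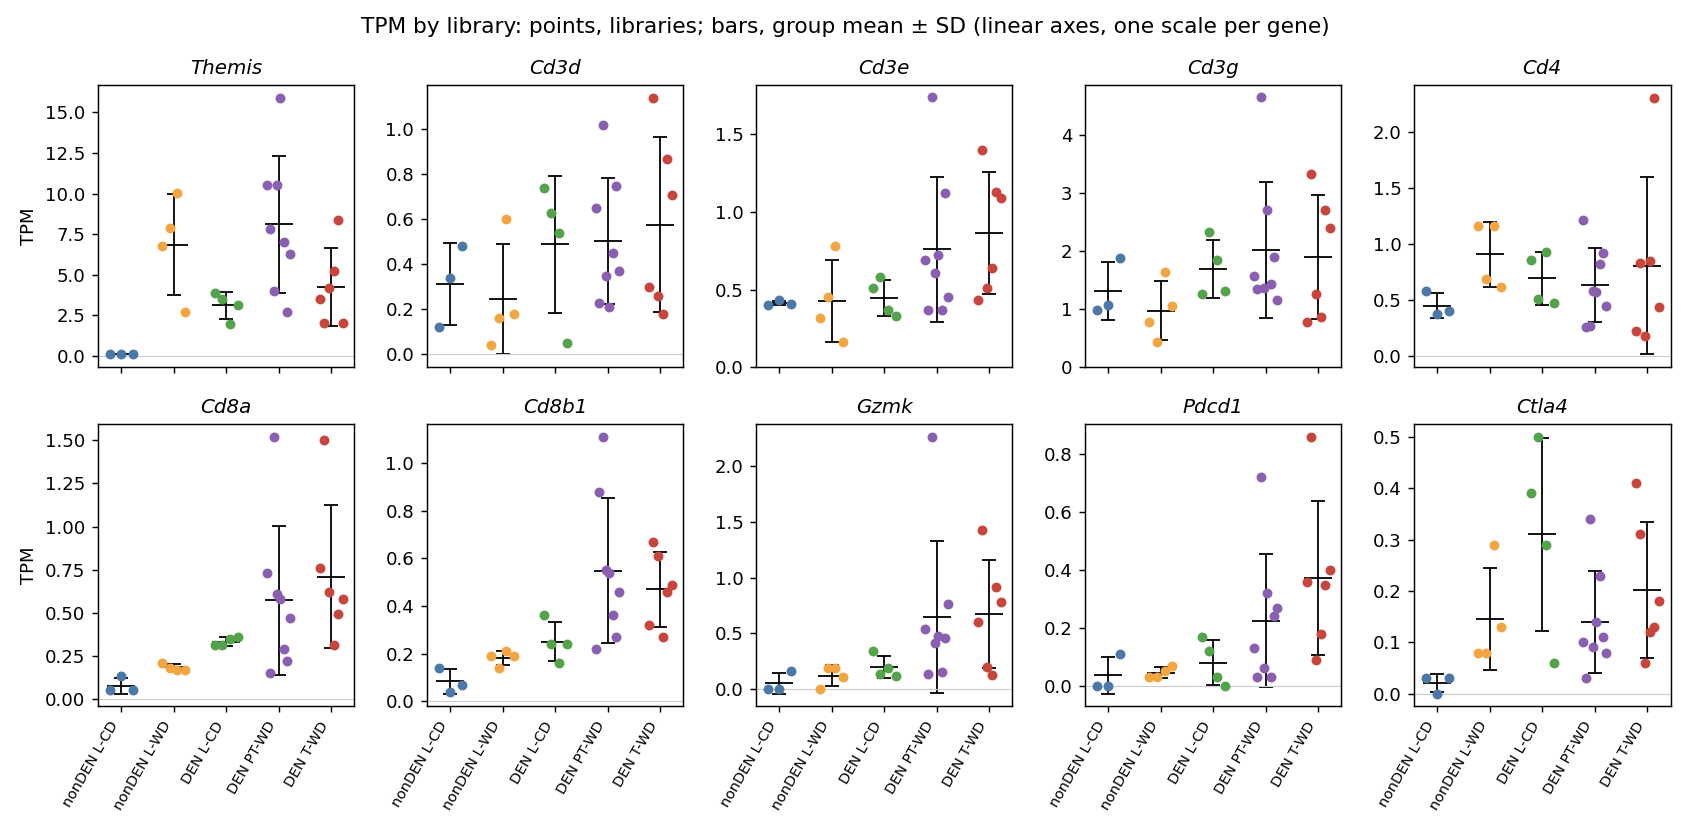
TPM of the 10 genes in each of the 25 libraries (points) by group, with the group mean and SD (bars), on linear axes with a scale of its own for each gene. The 3 nonDEN L-CD libraries lie at 0.09 to 0.12 TPM for Themis, far below all others, and inside the range of the other groups for Cd3d, Cd3e, Cd3g and Cd4.

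Among the DEN groups, the mean of Themis was lower in tumors than in peritumoral liver, with a fitted log2 fold change of -1.12 (SE 0.33, n = 6 and 8). The groups overlapped: the highest tumor, replicate 5 with 807 counts, is the library with little Alb, and the lowest peritumoral library, replicate 7 with 275 counts, is the peritumoral library with little Alb. The log2 fold change was between -1.40 and -0.94 when each library was left out, and -0.95 without the 4 peritumoral libraries nearer to the tumors. Set against DEN-injected liver on CD, Themis differed by 1.07 in peritumoral liver on WD (SE 0.38, n = 8 and 4) and by -0.05 in tumors (SE 0.39, n = 6 and 4), and the sign of the latter changed with the libraries used.

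Of the CD3 chains, Cd3e had exactly 11 expected counts in each of the 3 nonDEN L-CD libraries. In nonDEN L-WD there were 9, 12, 21 and 5 counts, and the DEN L-CD livers had 15, 14, 9 and 8. In DEN PT-WD it ranged from 8 to 41 with a median of 15, and in DEN T-WD from 8 to 32 with a median of 23. The groups overlapped throughout. Cd3g was the most abundant chain per length, with group means between 0.978 ± 0.507 TPM (SD, n = 4) in nonDEN L-WD and 2.02 ± 1.17 TPM (n = 8) in DEN PT-WD. Cd3d had group means from 0.245 ± 0.245 TPM (n = 4) in nonDEN L-WD to 0.577 ± 0.389 TPM (n = 6) in DEN T-WD, and Cd3e from 0.413 ± 0.0153 TPM (n = 3) in nonDEN L-CD to 0.867 ± 0.393 TPM (n = 6) in DEN T-WD. The deposited lengths of Cd3d and Cd3e are 1323 and 1436 bases and their GENCODE transcripts have 1617 and 1462, so the order of these chains per length depends on the annotation. No CD3 chain was called in any of the 10 pairwise comparisons. The highest summed level of the 3 chains was 7.42 TPM in DEN PT-WD replicate 3, followed by 5.88 TPM in DEN T-WD replicate 2, and these libraries had 4.01 and 2.04 TPM of Themis. With 22 to 113 reads in the 3 chains together per library, only large differences were detectable at this depth.

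Cd4 had expected counts of 20, 14 and 24 in nonDEN L-CD. Uninjected livers on WD had 43, 19, 27 and 31. It had 40, 22, 34 and 25 in DEN L-CD, a range of 14 to 55 with a median of 28 in DEN PT-WD, and a range of 9 to 76 with a median of 25.5 in DEN T-WD. The highest value was in DEN T-WD replicate 5, the tumor with little Alb. Cd4 was not called in any comparison. Its mean transcript length as estimated by RSEM ran from 1242 to 3108 bases between libraries, the longest being that of its protein-coding transcript.

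Cd8a had 2, 6 and 3 expected counts in nonDEN L-CD. Uninjected livers on WD had 8, 9, 8 and 11, and the DEN L-CD livers had 19, 16, 16 and 15. It ranged from 8 to 79 in DEN PT-WD (median 28) and from 17 to 67 in DEN T-WD (median 26.5). All libraries of each other group were above the 3 of nonDEN L-CD, as were 15.6% of tested genes for nonDEN L-WD, 17.2% for DEN L-CD, 16.9% for DEN PT-WD and 21.7% for DEN T-WD. Cd8b1 had 4, 1 and 2 counts in nonDEN L-CD. On WD without DEN the counts were 5.44, 4, 6 and 6. It had 11, 6, 4 and 6 in DEN L-CD, 5 to 27 in DEN PT-WD (median 12.9) and 6 to 16 in DEN T-WD (median 13.5). Of the 50-base words of Cd8b1 transcripts, 6.28% also occur in other genes, against 1.23% for Themis, and RSEM gave Cd8b1 fractional counts in 3 libraries.

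Cd8a was the member called in DEN L-CD against nonDEN L-CD, at a log2 fold change of 2.16 (SE 0.71, adjusted p = 0.0334, edgeR), where 2.76% of all tested genes were called higher. The call was lost when single libraries were removed: leaving out any of the 3 nonDEN L-CD libraries gave adjusted p of 0.0546 to 0.108, and leaving out DEN L-CD replicate 1, 2 or 3 gave 0.0527 to 0.0569. With no filter on low counts the adjusted p was 0.0525. Against nonDEN L-WD, peritumoral liver had higher Cd8a (log2 fold change 1.67, SE 0.52, adjusted p = 0.0372) and Cd8b1 (1.36, SE 0.42, adjusted p = 0.0372), 2 of the 8 members tested other than Themis, where 2.36% of all genes were called higher. Neither was called without any 1 of the 4 nonDEN L-WD libraries, without DEN PT-WD replicate 3, 4 or 8, with no filter on low counts, or in a fit of these groups alone. Without DEN PT-WD replicate 2, Cd8a alone was called. Without the 4 peritumoral libraries nearer to the tumors the changes were 0.86 for Cd8a (adjusted p = 0.357) and 1.02 for Cd8b1 (adjusted p = 0.265). DESeq2 called 3 members in this comparison.

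Gzmk, Pdcd1 and Ctla4 were at the edge of detection in untreated mice. Gzmk had 0, 0 and 3 expected counts in nonDEN L-CD. The nonDEN L-WD libraries had 0, 3, 3 and 2, and those of DEN L-CD 6, 2, 3 and 2. It reached 2 to 33 counts in DEN PT-WD (median 7) and 2 to 23 in DEN T-WD (median 12). Pdcd1 had 0, 0 and 4 counts in nonDEN L-CD. On WD without DEN it had 1, 1, 2 and 3, and the DEN L-CD livers had 7, 4, 1 and 0. It reached 1 to 23 in DEN PT-WD (median 6.5) and 3 to 27 in DEN T-WD (median 11). DEN PT-WD replicate 3 and DEN T-WD replicate 2 held the highest values of both genes in their groups, and they also held the highest CD3 levels.

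The 3 reads of Gzmk over all nonDEN L-CD libraries give only a loose ratio: per sequenced read it was 10.5 times as high in DEN PT-WD (83 reads, 95% exact interval 3.47 to 51.9) and 11.3 times as high in DEN T-WD (69 reads, 3.70 to 56.0), intervals that cover counting error only. Ctla4 had 1, 0 and 1 counts in nonDEN L-CD. The nonDEN L-WD libraries had 2, 3, 6 and 3, and those of DEN L-CD 13, 8, 5 and 2. It had 1 to 11 counts in DEN PT-WD (median 3) and 2 to 6 in DEN T-WD (median 4.5). Its highest mean was thus in DEN L-CD (0.310 ± 0.187 TPM, SD, n = 4), not in tumors (0.202 ± 0.132 TPM, n = 6). In the fit with no filter on low counts, Ctla4 was higher in DEN-injected than in uninjected mice on CD (log2 fold change 3.20, SE 0.84, adjusted p = 0.0155, edgeR), where 1.32% of the 28092 genes of that fit were called higher. Against the same baseline of 2 reads it did not pass in nonDEN L-WD (2.04, adjusted p = 0.163), DEN PT-WD (2.08, adjusted p = 0.0707) or DEN T-WD (2.18, adjusted p = 0.0511), all from the same edgeR fit. Per sequenced read, the ratio of Ctla4 in DEN L-CD to nonDEN L-CD was 11.1 (28 reads against 2, 95% exact interval 2.81 to 96.4).

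Side by side, the comparisons gave different orders for Themis and for the other members. For WD against CD without DEN, Themis had a fitted log2 fold change of 5.75, and the other members tested ranged from -0.47 for Cd3d to 1.07 for Cd8a. Of these 8, none was called by edgeR or DESeq2 and none had an unadjusted p under 0.05, where 5.28% of all genes were called and 35.8% had such a p. For DEN against no DEN on CD, Themis had 4.87 and the 8 others ranged from 0.08 for Cd3e to 2.16 for Cd8a. Those comparisons share the nonDEN L-CD libraries. With peritumoral liver set against DEN L-CD, the 8 others ranged from -0.42 for Cd4 to 1.37 for Gzmk. None of them was called by edgeR or DESeq2 or had an unadjusted p under 0.05, with 1.90% of all genes called and 27.3% under that p.

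In tumors against peritumoral liver, the 8 others ranged from -0.35 (Cd8b1, SE 0.33) to 0.57 (Pdcd1, SE 0.62), with Cd3e at 0.07 (SE 0.35), and their median was 0.05 beside 0.01 for all tested genes. None was called by edgeR or DESeq2 or had an unadjusted p under 0.05, in a comparison where 7.90% of all genes were called and 45.9% had such a p. Nor was any of the 8 called by either tool, or under that p, for tumors against DEN L-CD (14.3% of all genes called, 53.1% under that p) or for DEN L-CD with nonDEN L-WD as its baseline (0.25% called, 13.5% under that p). The interaction of DEN with diet set the difference of DEN PT-WD from DEN L-CD against that of nonDEN L-WD from nonDEN L-CD. Its DEN arm compares peritumoral liver with liver, so WD and tumors cannot be told apart in it. It called none of the 8 with edgeR or DESeq2, and none had an unadjusted p under 0.05, beside 2.75% of all genes called and 24.1% under that p. For Themis the difference of WD from CD was 53.6-fold without DEN. It was 2.09-fold with DEN, where the WD tissue was peritumoral. The difference of these is left without a test like its other group differences. Of the 25 genes of T cell receptor signalling tested, Skap1 (-1.98, SE 0.60, adjusted p = 0.0431) and Cd2 (-1.65, SE 0.52, adjusted p = 0.0490) were called lower for this interaction by edgeR, as was Pax5 (-2.90, SE 0.57, adjusted p = 0.00357) of the 7 B and plasma cell markers. Skap1 encodes an adaptor of T cell adhesion and Cd2 an adhesion receptor of T and NK cells.

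**Figure D2:**
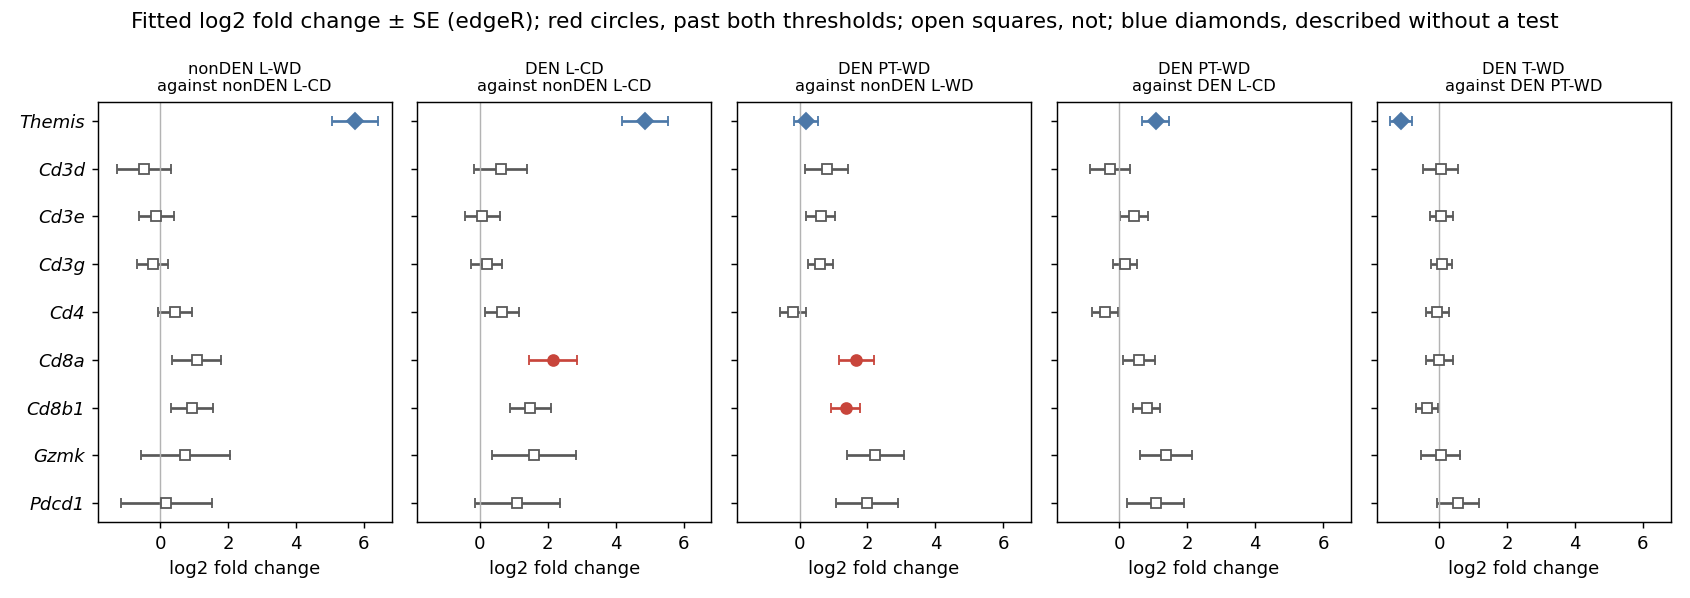
Fitted log2 fold change with its SE (x axes) for the 9 members that passed the filter (rows) in 5 comparisons (panels). Themis, shown without a test in all panels, lies at 5.75 and 4.87 in the first panels and at -1.12 in the last, while the furthest value of a CD3 chain is 0.80, for Cd3d in DEN PT-WD against nonDEN L-WD.

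Against nonDEN L-CD, which they share as the baseline, DEN PT-WD and DEN T-WD had more members called. In DEN PT-WD these were 3 of 8: Cd8a (log2 fold change 2.74, SE 0.66, adjusted p = 0.00191), Cd8b1 (2.30, SE 0.54, adjusted p = 0.00149) and Gzmk (2.97, SE 1.06, adjusted p = 0.0263), where 10.2% of all genes were called higher. In DEN T-WD the same 3 genes and Pdcd1 (2.74, SE 1.09, adjusted p = 0.0367) were called, where 14.5% of all genes were called higher. Outside DEN PT-WD and DEN T-WD, a library had at most 6 counts of Gzmk and 7 of Pdcd1. With a minimum count of 10, both thus passed the filter only through the groups where they were high. Cd8b1 reached that minimum elsewhere only in DEN L-CD replicate 1, with 11 counts. The calls of these genes in DEN PT-WD and DEN T-WD, against either nonDEN group, are therefore a description. Gzmk in both groups and Pdcd1 in tumors were not called without nonDEN L-CD replicate 1 or 2. Pdcd1 in DEN PT-WD was not called with all libraries (2.18, SE 1.08, adjusted p = 0.103) but was without nonDEN L-CD replicate 3 (adjusted p = 0.0280), whose removal leaves a baseline of 0 counts. Pdcd1 was not called without DEN T-WD replicate 2 (adjusted p = 0.0783) or with no filter on low counts (0.0583), and Gzmk in DEN PT-WD was not called without the 4 peritumoral libraries nearer to the tumors (log2 fold change 1.95, adjusted p = 0.160). Against nonDEN L-WD, tumors had higher Cd8a (1.68, SE 0.53, adjusted p = 0.0120), Gzmk (2.28, SE 0.85, adjusted p = 0.0304) and Pdcd1 (2.56, SE 0.92, adjusted p = 0.0250), beside 10.4% of all genes called higher. The last 2 were not called without nonDEN L-WD replicate 1 or DEN T-WD replicate 2, nor Pdcd1 without nonDEN L-WD replicate 2, nor Gzmk without nonDEN L-WD replicate 4. With nonDEN L-CD as the baseline, 3 of the 5 pan-leukocyte genes were called in peritumoral liver and 4 in tumors, all higher (beside 10.2% and 14.5% of all genes), and none was called in tumors against nonDEN L-WD. Their summed level was 27.4 to 36.4 TPM in nonDEN L-CD, 29.6 to 64.25 TPM in nonDEN L-WD, 47.1 to 102 TPM in DEN PT-WD and 62.5 to 161 TPM in DEN T-WD, and their part in the calls was not tested.

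The ratio of Themis to Cd3e, each in TPM, was 0.225 to 0.279 in nonDEN L-CD. It was 12.9 to 21.1 in nonDEN L-WD and 5.24 to 9.52 in DEN L-CD. Peritumoral libraries ranged from 2.30 to 22.1 with a median of 16.3, and tumors from 1.46 to 8.20 with a median of 7.77. The low ends were DEN PT-WD replicates 3 and 7 and DEN T-WD replicates 2 and 6, all with more CD3 than most of their group and with the lowest Themis of it (4.01 and 2.69 TPM in the former, 2.04 TPM in both of the latter). On the log2 CPM scale the mean ratio in tumors differed by -1.24 from that in peritumoral liver, and by -1.54 to -0.94 when each library was left out, the ends being without DEN PT-WD replicate 3 and without DEN T-WD replicate 2. Against DEN L-CD it differed by 0.69 in peritumoral liver and by -0.54 in tumors. The ratio contains the level of Themis and is given as a description as well.

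**Figure D3:**
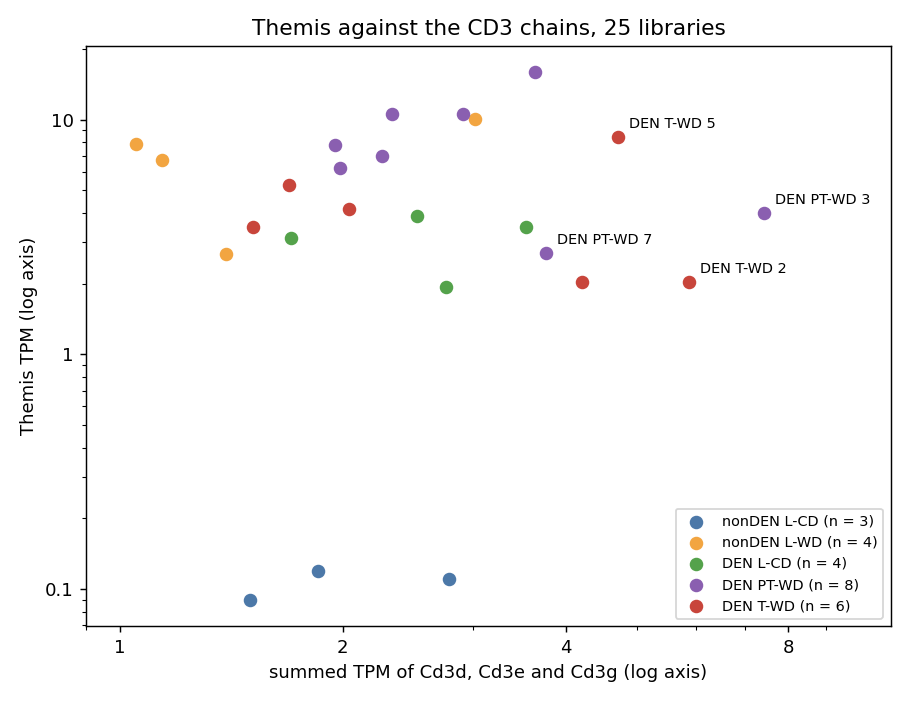
Themis TPM against the summed TPM of Cd3d, Cd3e and Cd3g in 25 libraries (points, coloured by group), both on log axes. The 3 nonDEN L-CD libraries lie at 0.09 to 0.12 TPM of Themis with 1.5 to 2.78 TPM of CD3, and the library with most CD3, DEN PT-WD replicate 3 at 7.42 TPM, has 4.01 TPM of Themis.

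Within groups, Themis was compared with each of the 9 others across the libraries of DEN PT-WD (n = 8) and DEN T-WD (n = 6), in 18 relations on log2 CPM. Pearson's r was negative in 8 of 9 relations in each group. None passed correction: the lowest adjusted p of the exact permutation test was 0.583 for r and 0.600 for Spearman's rho. For Cd3e in DEN PT-WD, r was -0.58 (exact permutation p = 0.128, adjusted p = 0.583) and rho was -0.24 (exact permutation p = 0.582). This relation rested on 2 libraries. Without the 2 farthest from the median of Cd3e, r was 0.79 (exact permutation p = 0.0583, n = 6). For Cd3d in DEN PT-WD, r was -0.74 (exact permutation p = 0.0351, adjusted p = 0.583) and rho was -0.69 (exact permutation p = 0.0694), the lowest p for r of the 18, and r was -0.53 without the 2 libraries farthest from its median. For Cd3g, r was -0.31 with all 8 libraries and -0.24 after the same step. That step, with each gene's own median, moved r from 0.06 to 0.72 for Cd8a and from -0.03 to 0.62 for Cd8b1. It moved r from -0.38 to 0.14 for Cd4, and left Gzmk, Pdcd1 and Ctla4 at -0.09, -0.15 and -0.08. The sign of several of these relations thus depended on the libraries used. In DEN T-WD, r was -0.22 for Cd3e (exact permutation p = 0.676) and rho was -0.37 (exact permutation p = 0.497), and r was -0.22 without the 2 libraries. There the same step moved r from -0.33 to 0.20 for Cd3d and from -0.31 to 0.15 for Cd8b1. Cd4 stayed above 0 and the other members below it. The largest correlation in tumors was with Cd8a (r = -0.71, exact permutation p = 0.0861; rho = -0.89, exact permutation p = 0.0333; adjusted p = 0.583 and 0.600), and r was -0.90 in the 4 libraries left by the same step, too few for a test.

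Taking the deviations of log2 CPM from the group means in all 25 libraries, most pairs of the 9 other members had a positive r and no pair with Themis did. Among their 36 pairs, 34 had a positive r, with a median of 0.48. The strongest pairs were Gzmk with Pdcd1 (0.84) and Pdcd1 with Ctla4 (0.83), and Cd3e had an r of 0.67 with Cd3g and 0.66 with Cd3d. Cd4 was the exception, at 0.14 with Cd3e and below 0 with both CD8 genes. All 9 values of r with Themis were below 0, from -0.32 for Gzmk to -0.01 for Cd4. With group differences included, over the log2 CPM of all 25 libraries, Themis had an r of 0.53 with Cd8b1, 0.48 with Cd8a, 0.29 with Gzmk, 0.19 with Pdcd1 and 0.11 with Cd4, and of -0.07 to 0.02 with the CD3 chains. The relation of Themis to both CD8 genes thus depended on whether the group means were kept. These points share the libraries and their scaling, and are given as a description.

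**Figure D4:**
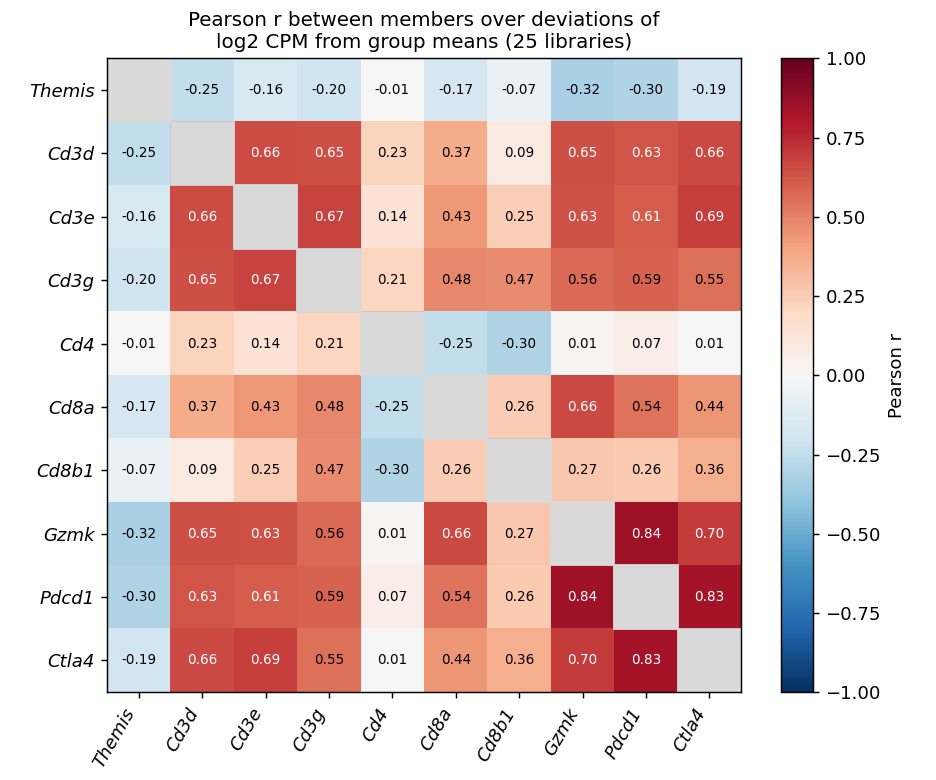
Pearson r between each pair of the 10 genes over deviations of log2 CPM from group means in 25 libraries (colour from -1 to 1, values printed). The Themis row is at or below -0.01 throughout, and the block of Gzmk, Pdcd1 and Ctla4 reaches 0.84.

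Ranked over the 15624 other tested genes by the same measure, the members stood at rank 25 (Cd3g), 33 (Cd3d), 55 (Gzmk), 93 (Pdcd1), 717 (Cd8a), 2586 (Cd8b1) and 4483 (Cd4) in likeness to Cd3e, and Themis at 11787. The 5 genes most like Cd3e were Ikzf3, Adam19, Itgb7, Lsp1 and Cnp (r of 0.77 to 0.87). Ikzf3 encodes Aiolos, a transcription factor of lymphocytes, and Itgb7 encodes an integrin chain by which lymphocytes home to the gut. For Themis, the members stood between rank 7796 (Cd4) and 13284 (Gzmk), and over all libraries, group differences included, between 1548 (Cd8b1) and 8980 (Cd3d). The 5 genes most like Themis were Lgals1, Lyplal1, Lipa, Rmdn3 and Myo5b (r of 0.84 to 0.87), of which Lipa encodes lysosomal acid lipase and Myo5b a myosin motor. Over the log2 CPM of all 25 libraries, group differences included, the 5 closest to Themis were E330011O21Rik, Klhl5, Vti1a, Pparg and Adora1 (r of 0.92 to 0.95), of which Pparg encodes a nuclear receptor of fat storage, and the 5 closest to Cd3e were Ikzf3, Cnp, Itgb7, Hrh2 and Serpina3g (r of 0.71 to 0.83).

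Companion lists were compared in the same way. For Themis, the median r was -0.01 over 25 genes of T cell receptor signalling, -0.18 over 8 cytotoxic effectors, 0.10 over 5 pan-leukocyte genes and -0.44 over 7 hepatocyte markers. It was 0.62 over 12 lipid storage genes, all positive, against -0.01 for all tested genes. Among those, r was 0.77 for Cd36, a fatty acid transporter, 0.73 for Fitm1, 0.67 for Cidec, a lipid droplet protein, and 0.63 for Pparg. For Cd3e the same lists had medians of 0.52, 0.39, 0.53, -0.11 and -0.23. Over all libraries, group differences included, the medians for Themis were 0.34, 0.32, 0.45, -0.40 and 0.54 (10 of the 12 lipid storage genes positive, with Plin5 at -0.54 and Plin2 at -0.44), and 0.59 over the 7 B and plasma cell markers (-0.19 over deviations), against 0.03 for all tested genes. Themis2, the related gene known from B cells and macrophages, had an r of 0.07 with Themis and 0.52 with Cd3e.

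**Figure D5:**
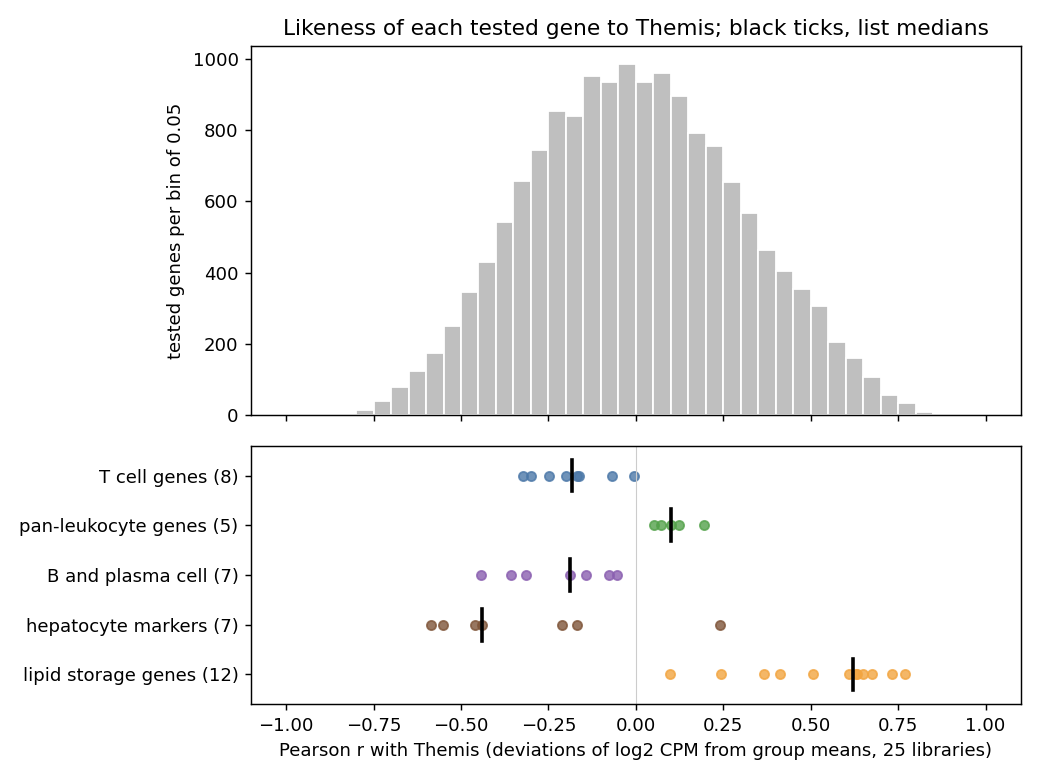
Upper panel, number of tested genes per bin of 0.05 (y axis) by Pearson r with Themis over deviations from group means (x axis). Lower panel, r of single genes in 5 lists with the list median as a black tick. The 8 other tested members lie between -0.32 and -0.01 and the lipid storage genes between 0.10 and 0.77.

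Between groups, other genes of the T cell receptor pathway were counted. For WD against CD without DEN, 19 of the 25 signalling genes tested had a fold above 1, with a list median of 0.39 on the log2 scale beside 0.01 for all genes. In DEN L-CD against nonDEN L-CD, 3 of the 25 were higher and none lower, namely Skap1 (log2 fold change 2.07), Cd2 (1.73) and Icos (1.10), beside 2.76% of all genes called higher, with a list median of 0.53 beside 0.02 for all genes. In DEN PT-WD against nonDEN L-CD, 8 of 25 were higher, among them Rasgrp1 (1.46), Grap2 (1.37) and Skap1 (1.31), beside 10.2% of all genes, with a median of 0.77 beside 0.04. Tumors against nonDEN L-CD had 6 of 25 higher, beside 14.5% of all genes. Peritumoral liver against nonDEN L-WD had 2 of 25 higher, beside 2.36% of all genes. In tumors against peritumoral liver, none of the 25 was called in either direction, beside 7.90% of all genes.

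Of 14 subset genes tested, Ccr7, the homing receptor of naive and central memory lymphocytes, was the gene called both in nonDEN L-WD (1.90, beside 5.28% of all genes called) and in DEN L-CD (2.21, beside 2.76% called higher), each against nonDEN L-CD. Against that baseline 3 were higher in DEN PT-WD, namely Ccr7 (2.47), Eomes (2.04), a transcription factor of memory and cytotoxic lymphocytes, and Ikzf2 (1.15), beside 10.2% of all genes. In DEN T-WD they were Ccr7 (2.88), Eomes (2.39) and the interleukin 7 receptor gene Il7r (1.13), beside 14.5%. Of 10 other checkpoint genes, 4 were higher in peritumoral liver than in untreated mice on CD, beside 10.2% of all genes: Tox (1.42), Btla (1.30), Cd274, which encodes PD-L1 (1.17), and Cd86 (1.09). Tox was also called in nonDEN L-WD (1.31, beside 5.28%), and Btla (1.28) and Cd274 (1.04) in tumors (beside 14.5%), against the same baseline. Cytotoxic effectors called in DEN PT-WD against nonDEN L-WD were Gzma (1.89) and Fasl (1.82), 2 of 8 tested, beside 2.36% of all genes called higher. In DEN L-CD against nonDEN L-CD they were Gzma (2.06) and the chemokine gene Ccl5 (1.67), beside 2.76%.

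Markers of other lymphocytes were called beside the members. Against nonDEN L-CD, 6 of 7 B and plasma cell markers were higher both in DEN PT-WD, led by Pax5 (log2 fold change 3.38), and in DEN T-WD, led by Pax5 (3.49), beside 10.2% and 14.5% of all genes. Of 4 NK and gamma delta T cell markers tested, 2 were higher in DEN PT-WD (Ncr1 2.07 and Klrk1 1.84) and 3 in DEN T-WD (Trdc 3.27, Ncr1 2.45 and Klrk1 1.41) against that baseline. Members called in these comparisons numbered 3 and 4. Tumors against nonDEN L-WD also had 3 members called. There none of the 7 B and plasma cell markers was called and 2 of the 4 NK and gamma delta T cell markers were higher. Of the B and plasma cell markers, 5 of 7 were higher with DEN than without it on CD, beside 2.76% of all genes called higher, led by Pax5 (log2 fold change 3.47), Ms4a1 (2.67), Cd79a (2.18) and Cd79b (1.72), while their summed level was 6.88 to 43.1 TPM in the former and 2.31 to 14.5 TPM in the latter. The highest value was that of DEN L-CD replicate 1, and the other 3 libraries of the group, at 6.88 to 11.6 TPM, lay inside the range without DEN. In nonDEN L-WD, 3 of 7 were higher (Pax5 2.81, Cd79a 1.65, Cd22 1.09), beside 5.28% of all genes called in either direction. In tumors, Trdc, the constant chain of the gamma delta T cell receptor, was higher than in peritumoral liver (1.98, adjusted p = 0.000672, edgeR), in a comparison where no CD3 chain was called and 7.90% of all genes were. Of 10 myeloid markers, 5 had a fold above 1 in tumors against peritumoral liver, and the list median was -0.14 on the log2 scale. The 2 called, both lower, were the Kupffer cell genes Timd4 (-1.68) and Clec4f (-1.04), beside 7.90% of all genes called. Pancreas acinar markers summed to 9.72 to 5590 TPM across the libraries and were not called in any comparison. The part of these cell types in the members' values was not tested.

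Lipid storage genes were also counted. Of 12, 6 were higher and 1 lower in nonDEN L-WD against nonDEN L-CD, beside 5.28% of all genes called, led by Cidea (5.82), Mogat1 (3.70), Vldlr (2.96) and Pparg (2.02). In DEN L-CD against nonDEN L-CD, 5 were higher and 1 lower, beside 4.70% of all genes called, led by Cidea (3.44) and Mogat1 (2.48). In tumors against peritumoral liver, 3 were lower (Mogat1 -1.60, Plin4 -1.17 and Fitm1 -1.12) and 1 was higher, the apolipoprotein gene Apoa4 (1.00), beside 7.90% of all genes called. In peritumoral liver against DEN L-CD, where 1.90% of all genes were called, 2 were higher, Vldlr (1.46) and Plin4 (1.25), as was Themis2 (1.02, adjusted p = 0.0233, edgeR), the other tested gene of the Themis family. For the interaction of DEN with diet, 4 of 12 were lower (Cidea -4.86, Mogat1 -2.90, Pparg -1.31 and Fitm1 -1.24), beside 2.75% of all genes called. Their part in the level of Themis was not tested.

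Around Themis, 3 genes whose start lies within 500000 bases were tested, Echdc1, Rnf146 and 2310057J18Rik, and none was called for WD against CD without DEN or in tumors against peritumoral liver. 2310057J18Rik was sporadic, with up to 397 counts in a library and a fitted value of -7.66 (adjusted p = 0.0739) in the former. The nearest upstream protein-coding gene, Ptprk, a receptor phosphatase 70963 bases away that was chosen after its values were seen, had a fitted log2 fold change of -0.32 (SE 0.16) for WD against CD without DEN and of 0.60 (SE 0.11) for tumors against peritumoral liver, given as a description. Echdc1, 429348 bases from Themis, had -0.16 and -0.08 in the same comparisons. The antisense gene 4930519F09Rik, which overlaps the end of Themis, had at most 2 counts in any library. The mean length of Themis transcripts as estimated by RSEM was 3969 to 5082 bases in all libraries, and 4321 to 4972 in nonDEN L-CD, against 5082 bases for the longest of 7 annotated transcripts, the protein-coding Themis-201. The lowest value was in nonDEN L-WD replicate 3 and the next in DEN T-WD replicate 1 (4125 bases), and the groups overlapped.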

How the data were processed

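RNA of 25 samples in 5 groups (3, 4, 4, 8 and 6) was sequenced from mRNA libraries by the study. Per the labels and the paper's methods, the authors checked reads with FastQC, aligned them to GRCm38 with STAR and deposited RSEM's expected count and TPM per gene. Expected counts are estimated and not normalized; the deposited TPM is corrected for length and for the total of each sample. Versions of STAR and RSEM, the annotation and the use of strand are not given in the sources used here, so reads shared with genes on the opposite strand cannot be told apart. Such overlaps are Themis with Gm47834 and 4930519F09Rik, Cd3e with Gm48719 and Gzmk with Esm1, though Gzmk transcripts hold no 50-base word of another gene. On the same strand, Cd3e overlaps Gm48720 and Ctla4 overlaps Rpl18-ps1.

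The members and lists were chosen with earlier results of these data known. Symbols were matched through GENCODE, with 126 companion genes in 12 lists. Named are the 10 members, up to 4 called genes of largest change per list and comparison, the 5 genes most like Themis and like Cd3e, and genes starting within 500000 bases of Themis. 2 genes of these lists are not reported here. Rounded expected counts entered 1 quasi-likelihood fit over all groups (edgeR 4.0.16 under R 4.3.3, TMM factors, filterByExpr with a minimum count of 10), with Benjamini-Hochberg adjustment over 15625 genes. DESeq2 1.42.0, other size factors, no filter, fits of only the 2 groups compared, a replicate block and the removal of libraries were alternatives. Log2 CPM used a prior count of 2 and log2 TPM a pseudocount of 0.1. Themis between groups, alone or relative to Cd3e, was meant to be tested among the DEN groups and is given as a description, since its levels in all groups were known when it was chosen. Correlations within groups were tested by exact two-sided permutation with SciPy 1.17.1 under Python 3.11.15. Tables were handled with pandas 2.3.3 and NumPy 2.4.6, and figures drawn with Matplotlib 3.10.9. On simulated counts with 200 changed genes at a log2 change of 2, the fit recovered 190 of 200 in a copy of the diet comparison without DEN (15314 genes) and 194 of 200 in a copy of tumors against peritumoral liver (15347 genes). The changed genes were drawn from those with a mean above 1 CPM. Cd3d, Cd3e, Cd3g, Cd8b1, Gzmk and Pdcd1 had lower means in every group, so this recovery does not apply to them. No pair of libraries in a group held the same counts. Promoters came from RefSeq.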

Additional observations from a re-analysis of the deposited data

Results flagged for a closer look

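Each of the 10 members was checked in the 4 groups of at least 4 libraries for a library far from the rest of its group on log2 CPM, which makes 40 combinations of gene and group, of which 3 stood out. The 3 libraries of nonDEN L-CD were too few for this check. Chance alone gives about 2. Cd3d in DEN L-CD replicate 4 was at -3.10, with 1 count, against -0.74 to -0.25 in the other 3 libraries of the group. Cd3g in DEN PT-WD replicate 3 was at 0.97, with 50 counts, against -0.43 to 0.00 in the other 7, and this library also held the most Cd3e, Cd8a, Gzmk and Pdcd1 of its group. Cd8a in DEN T-WD replicate 2 was at 1.25, with 67 counts, against -0.63 to 0.03 in the other 5 tumors. Themis had no such library in these 4 groups.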

How the results depend on the processing

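The member counts and the Themis values were recomputed under each alternative, and those that moved are given here, as log2 fold changes of the first group named over the second. The cause was not tested. For DEN PT-WD over nonDEN L-WD, the count of members called besides Themis (2) was 0 with no filter on low counts, 0 in a fit of only those groups, 1 with a replicate block, 1 without the 2 libraries of highest CD3 level and 0 without the 4 DEN PT-WD libraries nearer to the tumor mean. The last pair of alternatives was chosen after seeing the data. For Themis, given without a test, DESeq2's fold of 1.05 for DEN PT-WD over DEN L-CD was close to edgeR's 1.07. Without the 2 libraries of highest CD3, Themis was at 0.085 for DEN T-WD over DEN L-CD, Cd3d at -0.017 for DEN T-WD over DEN PT-WD and Cd3g at -0.062 for DEN PT-WD over DEN L-CD. Without the 4 DEN PT-WD libraries, Themis was at -0.95 for tumors against peritumoral liver, Cd3g at -0.14 and Cd8a at -0.23 for DEN PT-WD over DEN L-CD, and Cd4 at 0.017 for DEN PT-WD over nonDEN L-WD. The correlation of Themis with Cd3e in DEN PT-WD was 0.79 without the 2 libraries farthest from the median of Cd3e.

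Deviations of same-numbered samples had mixed correlations. Of 6 tumor and peritumoral pairs 2 had a correlation over 0.1 (range -0.23 to 0.34), and no comparison had all pairs over it. The mean over pairs was 0.13 for nonDEN L-WD with nonDEN L-CD and 0.15 for DEN L-CD with nonDEN L-CD. It was -0.02 to 0.07 in the other comparisons checked. Samples of different number were not compared, so these values cannot tell whether the numbers mark a pairing. In the fit with a replicate block, Cd4 was at 0.063 for DEN T-WD over DEN PT-WD, -0.31 for DEN PT-WD over nonDEN L-CD and -0.24 for DEN T-WD over nonDEN L-CD, and Cd8a at -0.092 for DEN T-WD over DEN PT-WD, each with the sign opposite to the fit without it. Cd8b1 for DEN PT-WD over nonDEN L-WD (adjusted p = 0.0583) and Pdcd1 for DEN T-WD over nonDEN L-WD (adjusted p = 0.0507) were not called with the block.

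Leaving out 1 library at a time, the count of members called ran from 0 to 2 for DEN L-CD over nonDEN L-CD, 2 to 4 for DEN PT-WD and for DEN T-WD over nonDEN L-CD, 0 to 3 for DEN PT-WD over nonDEN L-WD and 1 to 4 for DEN T-WD over nonDEN L-WD. Themis ran from 0.89 to 1.22 for DEN PT-WD over DEN L-CD, -1.40 to -0.94 for DEN T-WD over DEN PT-WD and -0.33 to 0.10 for DEN T-WD over DEN L-CD, its ratio to Cd3e from -1.54 to -0.94 for tumors against peritumoral liver, and its correlation with Cd3e in DEN T-WD from -0.61 to 0.12. Values near 0 changed sign. For tumors against peritumoral liver, Cd3d ran from -0.25 to 0.29, Cd3e from -0.11 to 0.37, Cd3g from -0.10 to 0.32, Cd4 from -0.46 to 0.13, Cd8a from -0.38 to 0.44 and Gzmk from -0.31 to 0.65. Against nonDEN L-CD, Cd3d ran from -0.079 to 0.79 in DEN PT-WD and -0.028 to 0.84 in DEN T-WD, Cd3e from -0.57 to 0.13 in nonDEN L-WD and -0.052 to 0.20 in DEN L-CD, Cd3g from -0.48 to 0.044 and Pdcd1 from -0.37 to 3.93 in nonDEN L-WD, and Cd4 from -0.22 to 0.36 in DEN T-WD. With DEN L-CD as the baseline, Cd3d ran from -0.66 to 0.025 in DEN PT-WD and -0.60 to 0.080 in DEN T-WD, and Cd3g from -0.062 to 0.35 in DEN PT-WD. Against nonDEN L-WD, Cd3e ran from -0.050 to 0.64 in DEN L-CD and Cd4 from -0.38 to 0.0063 in DEN PT-WD. Depth limits all members but Themis, which have 0 to 79 counts per library.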
